A study of Mus musculus with 6 samples.

Results

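Atrial RNA was read for 6 genes, of 43432 in the deposited table, picked as chamber genes of the heart. Sbk1, Sbk2, Bmp10, Dkk3 and Stard10 were picked as enriched in atria, which was not checked here, and Irx4 served as the ventricular reference. The rows were found by gene name, which the table writes in capitals, and each of the 6 names matched 1 row. They were chosen by name, with the normalized counts of these same samples in both diets in view. The differences between diets of these 6 genes are therefore given as descriptions, with no test.

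The samples were right and left atrial tissue of wild-type C57/Bl6J mice, 3 from mice fed a high-fat diet (HFD) and 3 from mice fed a control chow. Feeding began at 6 weeks of age and lasted 10 weeks in both groups, and no transgene or drug is named for any sample. Diets are those of the sample titles, which match the column names of the table. The labels also have a treatment entry, and in each of the 6 samples it names the other diet. If that entry were right, every direction below would be turned. The sex of the mice is not given in the sources used here, nor is it stated that each sample is a different mouse, so that the spread between samples may be in part technical. Right and left atria, and all of their cell types, were read together. A smaller share of a cell type and less RNA of a gene per cell of that type cannot be told apart in such tissue.

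Atria and ventricles are built from different programs of transcription factors and contractile proteins. The Iroquois factor Irx4 is made in ventricular myocytes and represses atrial genes there. Bmp10 is a secreted ligand of the BMP family, made by atrial myocytes and best known for signaling to endothelium through the receptor Alk1 (Acvrl1). Sbk1, Sbk2 and Sbk3 form a small family of SH3-binding serine/threonine kinases, of which Sbk2 and Sbk3 are found in atrial myocytes. Dkk3 is a secreted glycoprotein related to the Dickkopf inhibitors of Wnt signaling, and Stard10 is a lipid-transfer protein that binds phosphatidylcholine and phosphatidylethanolamine.

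4 of the 6 genes lie on chromosome 7 of GRCm38. Sbk2 (ENSMUSG00000030433) occupies chr7:4956134-4964390 on the minus strand. Its relative Sbk3 (ENSMUSG00000085272), which was not among the 6, lies on the same strand at chr7:4965260-4971168, and 869 bases separate the annotated genes. Dkk3 (chr7:112116019-112159057, minus strand), Stard10 (chr7:101317086-101346626, plus strand) and Sbk1 (chr7:126272619-126294999, plus strand) lie far from them and from each other. Bmp10 (chr6:87429002-87434512) and Irx4 (chr13:73260479-73269608) are on the plus strand. Among the transcripts of Sbk1, Sbk2 and Sbk3, which held 4217, 3144 and 3147 different stretches of 50 bases, the length of a read, 0 were shared between any pair of the genes. Stard10 overlaps the antisense gene Gm20476 and the pseudogene Gm45344, and whether strand was used to count its reads is not given in the sources used here. The other 5 genes overlap no other annotated gene.

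The sequence around the start of Sbk2, of its neighbor Sbk3 and of Bmp10 is shown because the first pair is set side by side below and the last held the matches to the motifs searched. RefSeq windows were found for 4 of the 6 genes, Sbk2, Bmp10, Stard10 and Irx4, and not for Sbk1 and Dkk3. Each run covers 250 bases before and 50 bases after the start, from RefSeq on GRCm38.p6, 5′ to 3′ on the strand of the gene, with motif matches in capitals. The windows are chr7:4964357-4964656 (minus strand), chr7:4970912-4971211 (minus strand) and chr6:87428744-87429043 (plus strand).
Sbk2: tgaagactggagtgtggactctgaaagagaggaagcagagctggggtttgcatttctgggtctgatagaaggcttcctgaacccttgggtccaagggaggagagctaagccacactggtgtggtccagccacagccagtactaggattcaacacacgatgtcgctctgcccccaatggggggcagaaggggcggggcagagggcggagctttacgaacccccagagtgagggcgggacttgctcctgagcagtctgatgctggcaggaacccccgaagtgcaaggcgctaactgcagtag
Sbk3: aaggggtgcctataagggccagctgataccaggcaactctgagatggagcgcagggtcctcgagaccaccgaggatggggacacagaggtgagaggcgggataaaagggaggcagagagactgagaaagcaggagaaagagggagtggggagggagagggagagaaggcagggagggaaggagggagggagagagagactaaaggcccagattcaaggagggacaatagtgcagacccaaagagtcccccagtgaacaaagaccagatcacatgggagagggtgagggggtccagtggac
Bmp10: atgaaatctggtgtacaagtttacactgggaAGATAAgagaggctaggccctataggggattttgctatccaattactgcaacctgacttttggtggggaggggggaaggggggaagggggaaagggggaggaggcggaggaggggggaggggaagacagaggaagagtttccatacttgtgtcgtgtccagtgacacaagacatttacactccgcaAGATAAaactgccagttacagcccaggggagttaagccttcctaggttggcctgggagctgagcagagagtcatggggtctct

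Both strands were searched for 6 motifs. The TATA box (TATAAA) occurs in 13.6% of the 32851 promoters of the same length, the GATA motif (AGATAA) in 11.2%, the NKX2-5 motif (TNAAGTG) in 11.5%, the T-box motif (AGGTGT) in 13.7%, the nuclear receptor motif (AGGTCA) in 16.3% and the glucocorticoid element in 0.475%. The window of Bmp10 held AGATAA at positions -219 and -33 from the start, both on the strand of the gene and neither overlapping another motif. In the windows of Sbk2, Sbk3, Stard10 and Irx4 none of the 6 motifs was found. The windows differ in base composition, as that of Irx4 has a GC content of 70.7% and 31 CpG dinucleotides, against 58.7% and 8 for Sbk2 and 58.0% and 4 for Sbk3. The median of all promoters is 52.7% and 7 CpG dinucleotides.

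Libraries held 15874251 to 28971508 reads on genes, the most in control sample 2, and 19.5% to 30.7% of reads were mitochondrial, again the most in control sample 2. The deposited values are read counts divided by a size factor for each sample, called normalized counts here, and 3 reads correspond to 2.05 to 3.41 of them (counting error only). The diets were compared by limma in the 15275 genes whose mean was 10 or more, on a scale of log2(normalized count + 1), which is the scale of all log2 differences here. At a Benjamini-Hochberg adjusted p under 0.05, 114 genes were called (0.746% of those tested), 74 of them higher (0.484%) and 40 lower on the HFD (0.262%). limma without a variance trend called 0 genes, with 1717 at an unadjusted p under 0.05 against 1864 in the main comparison, while edgeR called 87 and DESeq2 483.

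Sbk2 was lower on the HFD in every sample. It had 2526, 2656 and 2368 normalized counts in HFD samples 1, 2 and 3 and 5306, 5007 and 5648 in control samples 1, 2 and 3. The highest HFD value was thus far below the lowest control value, and within each diet the highest sample exceeded the lowest by a factor of 1.12 in HFD atria and 1.13 in control atria. The means were 2517 ± 144 in HFD atria and 5320.3 ± 321 in control atria (SD, n = 3 each), so that HFD atria held 47.3% of the control level. The log2 difference, HFD minus control, was -1.08 (standard error 0.11), and it ran from -1.12 to -1.04 with each sample left out in turn. The values rest on 2085 to 7316 reads per sample.

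**Figure D1:**
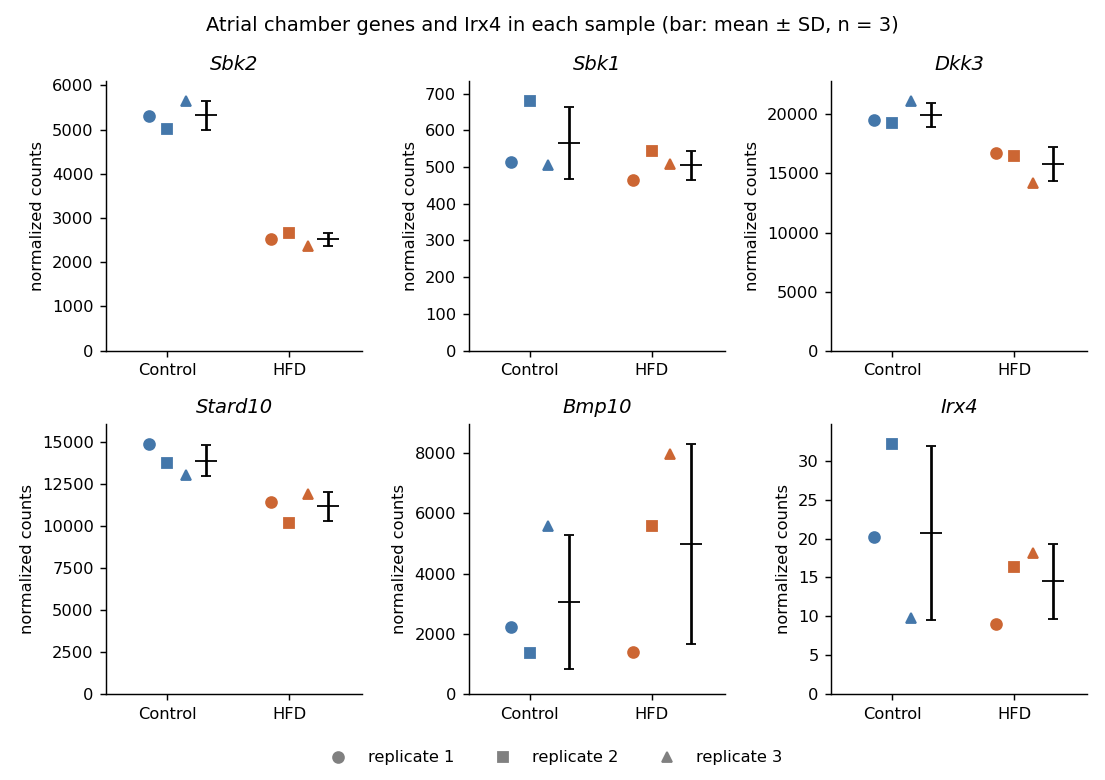
Normalized counts (vertical axis, from 0, a different scale in each panel) of Sbk2, Sbk1, Dkk3, Stard10, Bmp10 and Irx4 in the 3 control and 3 HFD samples; points are samples, the bar beside them the mean with its SD. The HFD points lie below all control points for Sbk2, Dkk3 and Stard10 and mix with them for Sbk1, Bmp10 and Irx4.

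Dkk3 and Stard10 were more abundant and lay closer together. Dkk3 had 16770.2, 16442 and 14156 normalized counts in HFD samples 1 to 3 and 19482, 19281 and 21129.5 in control samples 1 to 3. All HFD values were below all control values, and the means were 15789 ± 1424 in HFD atria and 19964 ± 1014 in control atria (SD, n = 3 each), a log2 difference of -0.34 (standard error 0.12). For Stard10 the values were 11442, 10198 and 11908 in HFD atria and 14888, 13766 and 13066 in control atria, again without overlap. Its means were 11183 ± 884 in HFD atria and 13907 ± 919 in control atria (SD, n = 3 each), and its log2 difference was -0.32 (standard error 0.12). HFD atria thus held 79.1% of the control level of Dkk3 and 80.4% of that of Stard10.

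Sbk1, the third kinase of the family, overlapped between the diets. Its values were 464, 543 and 508 normalized counts in HFD samples 1 to 3 and 514, 679.6 and 506 in control samples 1 to 3, control sample 2 being the highest of the 6. The log2 difference was -0.16 (standard error 0.15), and without control sample 2 it was -0.02. The ratio of Sbk2 to Sbk1 within a sample was 5.0 ± 0.40 in HFD atria and 9.62 ± 1.99 in control atria (SD, n = 3 each). This ratio did not overlap between the diets, its highest HFD value being 5.44 and its lowest control value 7.37. As Sbk2 alone did not overlap and was picked with this comparison in view, the ratio is no further support for a direction.

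Bmp10 varied widely within both diets. It had 1386, 5575 and 7959.9 normalized counts in HFD samples 1 to 3 and 2211, 1375 and 5568 in control samples 1 to 3. The values of HFD sample 1 and control sample 2 were nearly equal, and so were those of HFD sample 2 and control sample 3. The means were 4974 ± 3328 in HFD atria and 3051 ± 2219 in control atria (SD, n = 3 each), and the log2 difference of 0.62 (standard error 0.61) ran from 0.11 to 1.37 with each sample left out in turn, the lowest without HFD sample 3 and the highest without HFD sample 1. The SD of its log2 values within diets, 1.19, was at percentile 97.7 of the genes tested, whereas that of Sbk2, 0.0849, was at percentile 5.45 and the median gene had 0.22. Bmp10 had at least 1380 reads in every sample.

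Irx4, the ventricular reference, was close to the limit of these libraries. It had 9.04, 16.3 and 18.2 normalized counts in HFD samples 1 to 3 and 20.2, 32.2 and 9.84 in control samples 1 to 3, from 9 to 47 reads. The highest value came from control sample 2 and the groups overlapped. The log2 difference was -0.40 (standard error 0.56), and it ran from -0.83 to -0.02 with each sample left out in turn, the lowest without control sample 3 and the highest without control sample 2. A difference between the diets was not detectable with these few reads and this spread.

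In all, 5 of the 6 genes had a log2 difference below 0, as had 49.2% of the genes tested, and the median difference of the 6 was -0.33, against 0.0049 over all genes tested. All HFD values were below all control values for 3 of the 6 genes, Sbk2, Dkk3 and Stard10, as for 9.17% of the genes tested, and for 0 of the 6 were they all above, as for 8.86%. Groups that did not overlap in either direction were found in 18% of the genes tested. The threshold was passed by 1 of the 6, beside the 0.746% called among all genes. As the genes were picked with this comparison in view, neither this count nor these shares are a test, and nothing is read from them.

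**Figure D2:**
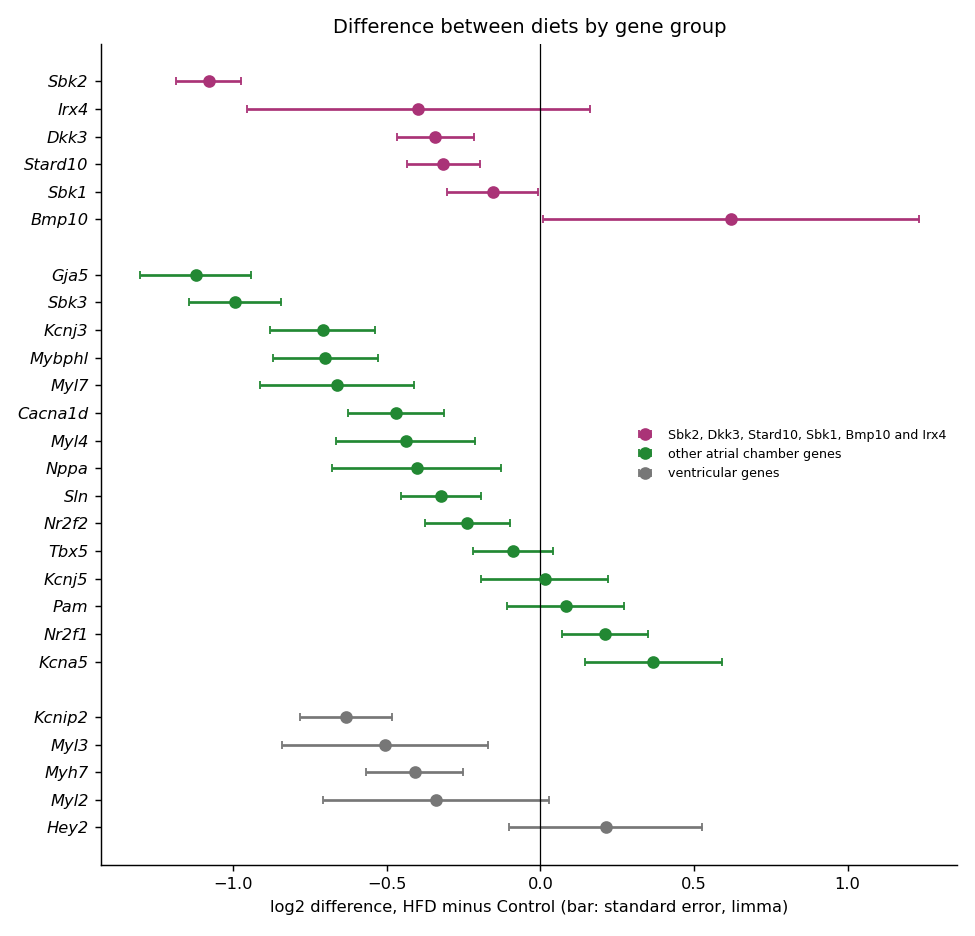
Log2 difference, HFD minus control (horizontal axis), with its standard error from limma, for the 6 genes, 15 other atrial chamber genes and the 5 ventricular genes tested. Sbk2, Sbk3 and Gja5 lie at -1.08, -0.99 and -1.12, Dkk3 and Stard10 at -0.34 and -0.32, and the bars of Bmp10 and Irx4 are the widest of the 6.

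Per kilobase of exon, the control level of the 6 genes ran from Dkk3 (5947 ± 302 normalized counts per kb) through Stard10 (5749 ± 380.0), Bmp10 (2317 ± 1685), Sbk2 (2193 ± 132) and Sbk1 (135 ± 23.3) to Irx4 (7.95 ± 4.29; SD, n = 3 each). Dkk3 and Stard10 lay within their spread of each other, as did Bmp10 and Sbk2, whereas Sbk1 and Irx4 lay well apart from their neighbors in the order. Exons of GENCODE M21 were counted within the bounds the deposited table gives for each gene. The order of Bmp10 and Sbk2 depends on this, since their later gene models are longer. With those lengths the control level would be 679.6 per kb for Bmp10, below 1691 for Sbk2. The HFD level would be 1108 for Bmp10, above 800 for Sbk2. Within the deposited bounds, the order on the HFD was the same as in control atria. Dkk3, Stard10, Bmp10, Sbk2, Sbk1 and Irx4 had 4703, 4623, 3777, 1037, 119.9 and 5.57 normalized counts per kb.

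Ventricular samples were not analysed here, so the enrichment in atria could not be checked itself. The tissue carried the markers of its label. Myl7, the atrial regulatory light chain, had 98712 normalized counts per kb in control atria, and Myl2, its ventricular counterpart, had 2295. The level of Myl2 was 5.90% to 9.85% of that of Myl7 in normalized counts in HFD atria and 3.94% to 14.5% in control atria, the most in control sample 2. Irx4 was highest in this same sample. Without control sample 2 the log2 difference of Sbk2 was -1.12 and that of Irx4 -0.02.

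Sbk3, the relative and neighbor of Sbk2, was not among the genes picked, but its list too was drawn up with results of these data known, so that its adjusted p is no independent support for a direction. It was lower in all HFD samples, with 7577, 9706 and 6767 normalized counts in HFD samples 1 to 3 and 14167, 16269.8 and 17031 in control samples 1 to 3. The means were 8017 ± 1518 in HFD atria and 15823 ± 1483 in control atria (SD, n = 3 each), and the log2 difference of -0.99 (standard error 0.15) passed the threshold in limma (adjusted p = 0.0202 over all genes tested). The call was not stable. It was kept in 2 of the 6 fits with a sample left out, those without HFD sample 2 and without HFD sample 3. It was also kept in 9 of the 11 other alternatives. The fits with a sample left out have fewer samples. In all of them but the fit without HFD sample 3, the calls over all genes fell from 114 to between 14 and 50. The ratio of Sbk3 to Sbk2 was 3.17 ± 0.425 in HFD atria and 2.98 ± 0.292 in control atria (SD, n = 3 each) and overlapped between the diets. Per kilobase of exon Sbk3 was also the more abundant of the pair, with 4949 ± 464 in control atria and 2508 ± 475 on the HFD.

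**Figure D3:**
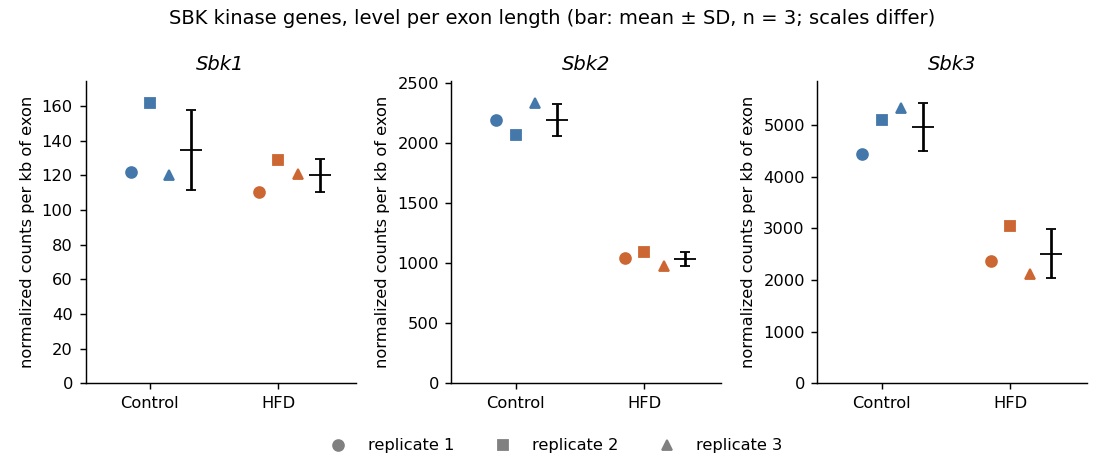
Normalized counts per kb of exon (vertical axis, from 0, a different scale in each panel) of Sbk1, Sbk2 and Sbk3 in the 3 control and 3 HFD samples, with the mean and SD. Sbk2 and Sbk3 fall apart by diet without overlap, and Sbk1, which is the least abundant of the family, overlaps.

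The other genes around Sbk2 and Sbk3 were read as well, a look chosen after the data were seen. Within 100000 bases of the pair, 13 other genes were tested, and 0 of them were called by limma or edgeR and 1 by DESeq2. Their log2 differences ran from -0.48 to 0.35. The lowest was that of Zfp579, the next gene tested beyond Sbk3 and the 1 with an unadjusted p under 0.05, with 2087 normalized counts in HFD atria and 2923 in control atria (adjusted p = 0.159 from limma), and it was the gene that DESeq2 called. On the other side of Sbk2, the nearest gene tested was Ssc5d, with a log2 difference of 0.20.

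**Figure D4:**
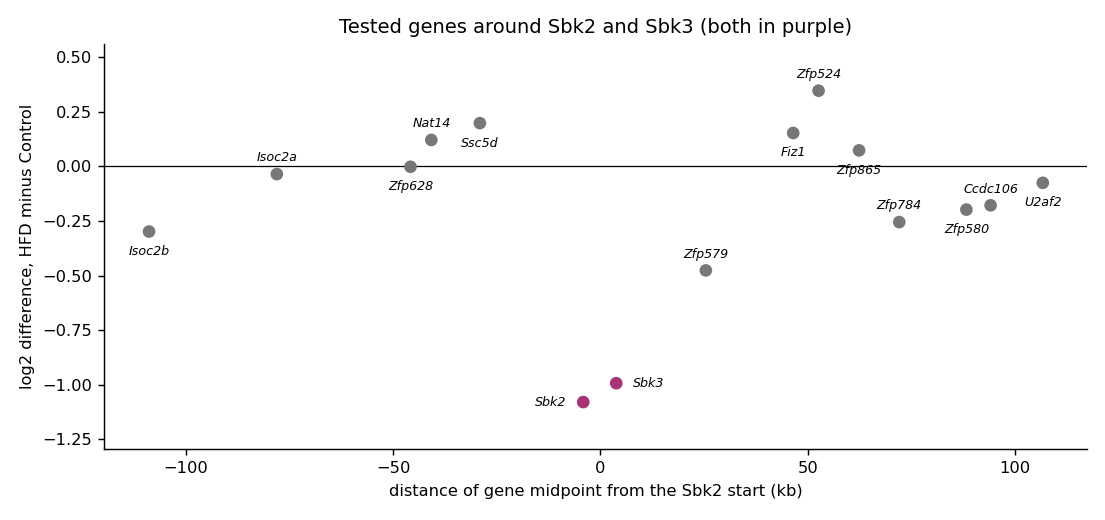
Log2 difference, HFD minus control (vertical axis), of the 15 tested genes around Sbk2 and Sbk3, by distance of the gene midpoint from the Sbk2 start in kb. Sbk2 and Sbk3, in purple, lie at -1.08 and -0.99, and the 13 others lie between -0.48 and 0.35.

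The genes whose profile over the 6 samples was most like that of Sbk2 were sought among 10830 others whose mean was 100 normalized counts or more. Likeness was the root mean square difference of the log2 values, each gene centered on its own mean. The nearest were Rbm3, a cold-inducible RNA-binding protein, at 0.12, Mlf1 at 0.14, Cabcoco1 at 0.14, Sbk3 at 0.14 and Lsmem1 at 0.15 on the log2 scale. As the measure compares profiles over both diets, all 5 were lower on the HFD, with log2 differences of -0.97, -0.92, -0.96, -0.99 and -0.88. Among the genes picked, the same distance was smallest between Dkk3 and Stard10 (0.16). From Sbk2 it was 0.37 to Dkk3, 0.41 to Stard10, 0.50 to Sbk1, 0.69 to Irx4 and 1.28 to Bmp10.

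**Figure D5:**
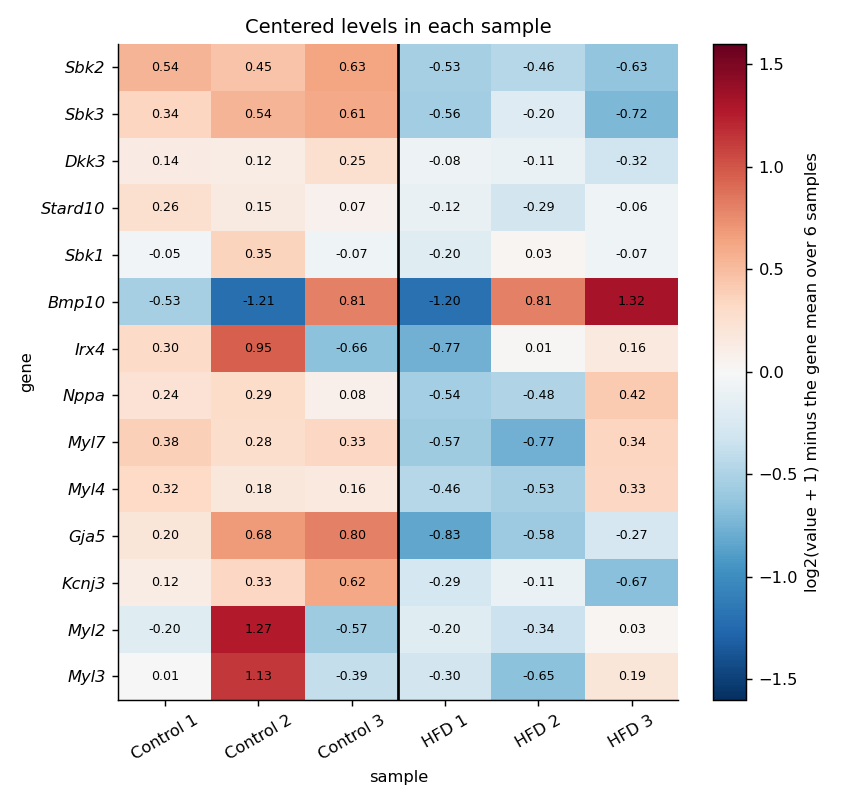
Log2(normalized count + 1) minus the mean of the gene over the 6 samples (color and printed value), for the genes picked, Sbk3 and 7 other chamber genes (rows) in each sample (columns). Sbk2 and Sbk3 are low in all 3 HFD samples, Nppa, Myl7 and Myl4 are low in HFD samples 1 and 2 and above 0 in HFD sample 3, and Bmp10 is low in HFD sample 1 and in control samples 1 and 2.

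Of 15 other genes known for expression in atrial myocytes, 2 passed the threshold in limma and in edgeR, both lower on the HFD (0.262% among all genes in limma), and 13 did not. DESeq2 called 4 of the 15, these 2 with Mybphl and Kcnj3. The other gene besides Sbk3 was Gja5, the atrial gap junction protein connexin 40, with 1059.8, 1254 and 1554 normalized counts in HFD atria and 2152, 3019 and 3277 in control atria. Its log2 difference was -1.12 (standard error 0.18), with an adjusted p = 0.0252 from limma, and the call was kept in 2 of the 6 fits with a sample left out, those without control sample 1 and without HFD sample 3. The median log2 difference of the 15 was -0.40, against 0.0049 over all genes tested, and 11 of the 15 were below 0. Among all genes tested 49.2% were below 0. The 5 ventricular genes tested had a median of -0.41, with 4 below 0. The 8 genes used by all cardiomyocytes, named below, had a median of -0.15, with 5 below 0. Of the ventricular genes, Myl2 and Myl3 had their highest values in control sample 2, at 8176 and 5513. Whether the shift is particular to atrial genes was not tested. In 6 of the 15 all HFD values were below all control values, against 9.17% of all genes tested, and in 0 were they all above, against 8.86%.

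In 3 abundant genes of this list, Nppa, Myl7 and Myl4, named after their values were seen, the HFD samples were divided. Nppa, the precursor of atrial natriuretic peptide, had 171702, 179008 and 333975 normalized counts in HFD samples 1 to 3 and 294185, 305627 and 263703 in control samples 1 to 3. HFD samples 1 and 2 were below every control sample, and HFD sample 3 was above them all. For Myl7 HFD sample 3 was within the control range, with 31186, 27168 and 58765 in HFD atria and 60190.2, 56346 and 58183 in control atria, and Myl4, the atrial essential light chain, had 57076, 54353 and 98076 in HFD atria and 97410.3, 88721 and 87506 in control atria, HFD sample 3 again being the highest. Their log2 differences were -0.40, -0.66 and -0.44 and did not pass the threshold. Without HFD sample 3, 5 of the 15 genes were called, Myl7, Myl4, Mybphl, Gja5 and Sbk3, while the calls over all 15275 genes rose as well, from 114 to 318. Sbk2 and Dkk3 did not share this division, as HFD sample 3 had the lowest value of all 6 samples for both.

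Among the channels of the list, Kcnj3, a subunit of the acetylcholine-gated potassium channel, had a log2 difference of -0.71 (standard error 0.17) and all HFD values below all control values, and missed the threshold in limma, with an adjusted p of 0.0954, while DESeq2 called it. Kcnj5, the other subunit of this channel, had 0.01, and the L-type calcium channel gene Cacna1d -0.47. The sarcolipin gene Sln had -0.32 and Mybphl, a myosin-binding protein, -0.70, both without overlap, and DESeq2 called Mybphl. The atrial transcription factors Tbx5, Nr2f1 and Nr2f2 had -0.09, 0.21 and -0.24, and all 3 overlapped between the diets.

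The summed level of 8 genes used by all cardiomyocytes (Myh6, Tnnt2, Actc1, Ryr2, Tnni3, Atp2a2, Actn2 and Mybpc3) was 764531 to 1190459.9 in HFD atria and 951413 to 1057608 in control atria. HFD sample 1 was the lowest and HFD sample 3 the highest of the 6, and 0 of the 8 genes were called by limma or edgeR. Tnnt2 and Tnni3 had an unadjusted p under 0.05, and Tnnt2 was called by DESeq2. Set against the mean log2 level of these 8 genes in the same sample, Sbk2 was still lower in all HFD samples, at -5.21 to -4.47 in HFD atria and -3.87 to -3.74 in control atria. The log2 difference of Sbk2 was then -0.94 (standard error 0.23, against 0.11 without the centering). On this scale 0 of the 6 genes picked passed the threshold. The mean log2 level of the 8 genes itself ran from 15.77 to 16.42 in HFD atria and from 16.16 to 16.21 in control atria. Among the 8, Actc1 had 48472, 65333 and 201539 normalized counts in HFD samples 1 to 3. The spread of this reference enters every value on this scale. Sbk3 did not overlap on this scale either, with a log2 difference of -0.85, and it was no longer called. Among the other atrial chamber genes, Myl7, Myl4, Mybphl and Gja5 were also lower without overlap on this scale. Gja5 was still called, and the remaining genes of that list overlapped. Dkk3 and Stard10 overlapped between the diets on this scale, with log2 differences of -0.20 and -0.18. The part of the lower cardiomyocyte genes of HFD samples 1 and 2 in these differences was not tested. This centering raised the median log2 difference of all genes tested to 0.14, and it left 95 calls, 83 higher and 12 lower, against 74 and 40.

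Of the 5 ventricular genes tested, 0 were called by limma or edgeR and 1, Kcnip2, by DESeq2, and 2 of the 5 had an unadjusted p under 0.05, Kcnip2 and Myh7. Irx1 and Irx2 had a mean under 10. Kcnip2, a subunit of the transient outward potassium channel, had 417, 482 and 519 normalized counts in HFD atria and 649, 872 and 689.7 in control atria, without overlap (log2 difference -0.63, adjusted p = 0.0886 from limma). Myl2 and Myl3, the ventricular light chains, were highest in control sample 2, at 8176 and 5513, against 2289.9 to 3470.0 and 1596 to 2875 in the other samples. Of the other Iroquois genes, Irx3 and Irx5 were tested, were called by none of limma, edgeR and DESeq2, and had log2 differences of 0.08 and -0.16, and Irx6 had a mean under 10.

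Bmp10 is known to be higher in the right than in the left atrium. The summed level of 5 right atrial and sinus node genes (Hcn4, Tbx3, Shox2, Isl1 and Tbx18) was 729 to 1416 in HFD atria and 817 to 1066 in control atria, lowest in HFD sample 3 and highest in HFD sample 2. Of these 5 genes, 0 were called by limma, edgeR or DESeq2, and 0 had an unadjusted p under 0.05. The part of unequal shares of right and left tissue in the spread of Bmp10 was not tested.

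The genes through which Bmp10 signals were read next. Of 10 genes for receptors, Smads and the related ligand Bmp9 (Gdf2), 0 were called by limma, edgeR or DESeq2, and 1 had an unadjusted p under 0.05. The receptor gene Acvrl1 had a log2 difference of 0.23 (standard error 0.17), and its partner receptors Bmpr2 and Acvr2a 0.02 (standard error 0.15) and 0.02 (standard error 0.19). Smad4, the shared Smad, had the unadjusted p under 0.05, with a log2 difference of 0.36 (standard error 0.15) and an adjusted p = 0.363 from limma. Of 5 target genes of BMP signaling, Id1, Id2, Id3, Smad6 and Smad7, 0 were called by limma, edgeR or DESeq2 and 0 had an unadjusted p under 0.05. Their log2 differences ran from -0.14 to 0.20, and their summed level was 4414 to 4811 in HFD atria and 4262 to 5159 in control atria.

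The relatives of Dkk3 had few reads. Dkk1 had 0 reads in all 6 samples, which allows up to 2.05 to 3.41 normalized counts, and Dkk2, Dkk4 and Dkkl1 had a mean under 10. Of the receptors of Dickkopf proteins, Kremen1, Lrp5 and Lrp6 were tested, Kremen2 had a mean under 10, and 0 were called by limma, edgeR or DESeq2, with Lrp6 at an unadjusted p under 0.05. Their log2 differences were 0.16, 0.21 and 0.33. The lipid-transfer proteins closest to Stard10, Pctp, Stard7 and Col4a3bp, had log2 differences of -0.54, -0.12 and 0.22, and 0 of the 3 were called by limma, edgeR or DESeq2 or had an unadjusted p under 0.05. Stard10 was the most abundant of this group per kilobase of exon, as Stard7 had 494 in control atria.

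Markers of other cells in atrial tissue were read beside these genes. Of 5 endothelial markers, all had a log2 difference above 0, 2 lay above the control samples without overlap (8.86% of all genes tested), 0 were called by limma or edgeR, and their summed level was 14017 to 15687 in HFD atria and 11650.2 to 12448 in control atria, without overlap. Pecam1 had a log2 difference of 0.57 (standard error 0.11), an adjusted p = 0.0504 from limma and a call by DESeq2. Of 5 macrophage markers 1 was called, the scavenger receptor gene Cd163, with 1041, 1273 and 803 normalized counts in HFD atria and 544, 542 and 502 in control atria (log2 difference 0.95, adjusted p = 0.031 from limma). That call was kept in 1 of the 6 fits with a sample left out, the fit without HFD sample 3, and the summed macrophage level was 8125 to 9517 in HFD atria and 5969 to 7694 in control atria. The summed levels of 3 endocardial, 5 fibroblast, 5 adipocyte, 4 epicardial and 3 smooth muscle markers overlapped between the diets, and 0 of these 20 genes were called by limma or edgeR. The endocardial factor Nfatc1 had an unadjusted p under 0.05, a log2 difference of 0.57 (standard error 0.12) and a call by DESeq2, and the epicardial marker Krt19 had an unadjusted p under 0.05. None of the markers was at 0 in all samples. Endothelial and macrophage markers were higher in sum in every HFD sample, but not gene by gene. The endothelial sum drew much of its difference from Pecam1, with means of 5917 in HFD atria and 3989 in control atria. Cdh5, Kdr, Tie1 and Tek had log2 differences of 0.04, 0.14, 0.16 and 0.18. Pecam1, Tie1, Cd68 and Cd163 lay above all control samples, as did 8.86% of all genes tested. Cdh5, Kdr and Tek overlapped between the diets, and so did Adgre1, Csf1r and Lyz2. The part of these other cells in the lower level of Sbk2, Dkk3 and Stard10 was not tested.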

How the data were processed

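RNA of 6 mouse atrial samples, 3 from each diet, was sequenced by the authors as 50-base single-end reads. Per the study's methods, STAR placed reads on GRCm38, those with a unique place were kept and counted per Ensembl gene with Salmon, and DESeq2 gave the size factors. The authors deposited a signal for each gene and sample, the count over the size factor, from which whole reads were recovered for all values within a tolerance of 0.001. The authors also deposited log2 fold changes with standard errors, p-values and adjusted p-values, and ranking scores, which were not used. 1 row named no gene and held 0% of the signal, and 97.8% of gene IDs matched a name.

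Diets were taken from the sample titles, and gene names were matched without regard to case. limma 3.58.1 in R 4.3.3 was fitted with a variance trend to log2(normalized count + 1) of all genes tested. edgeR 4.0.16 and DESeq2 1.42.0 took the recovered reads as alternatives, and all 3 were tested on simulated data. The 6 genes and the 16 gene lists were chosen with earlier results of these data known, and 1 further gene is not reported here. Genes named are the 6, list genes past the threshold or with a role described, the 5 nearest to Sbk2 in profile and its neighbors. Genes named for an unadjusted p or a DESeq2 call were chosen after their values were seen. Exon lengths came from GENCODE M21, which is later than the annotation of the table.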

Additional observations from a re-analysis of the deposited data

How the results depend on the processing

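Sbk2 was lower on the HFD under all 17 alternatives. Several of these change only the filter, the variance or the block and return the log2 difference of the main fit by design. As Sbk2 was also picked with this comparison in view, the count is no support for a direction. The centering on cardiomyocyte genes gave log2 differences of -0.94 for Sbk2, -0.20 for Dkk3 and -0.18 for Stard10. With each sample left out in turn the log2 differences ran from -0.23 to -0.02 for Sbk1, -1.12 to -1.04 for Sbk2, 0.11 to 1.37 for Bmp10, -0.39 to -0.26 for Dkk3, -0.36 to -0.25 for Stard10 and -0.83 to -0.02 for Irx4, which has no value under a minimum of 10 in every sample. The 114 genes called became 0 without a variance trend and 483 with DESeq2, and ran from 14 without control sample 2 to 318 without HFD sample 3 (48 without control sample 1, 19 without control sample 3, 50 without HFD sample 1 and 24 without HFD sample 2). The 2 other atrial genes called became 0 without a variance trend, 4 with DESeq2 and 1 with the centering, and ran from 0 to 5 with each sample left out. The 1 gene called in the other lists became 0 without a variance trend, 0 without mitochondrial genes, 2 with a minimum of 10 in every sample and 5 with DESeq2, and ran from 0 to 3 with each sample left out. The cause was not tested.

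Samples of the same number deviated from their group means with correlations over genes of 0.12, -0.03 and -0.0039. Over all pairs of an HFD and a control sample they ran from -0.15 to 0.16, the highest between HFD sample 2 and control sample 3. Whether the numbers pair the samples cannot be told from values this small. With the replicate number as a block 157 genes were called. The log2 differences did not move, which is fixed by design when each number occurs once per diet. The standard error fell from 0.61 to 0.37 for Bmp10 and rose from 0.11 to 0.13 for Sbk2. At 9 to 47 reads, Irx4 alone among the 6 genes was near the limit of depth, and the part of depth in its spread was not tested.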
